A study of Mus musculus with 30 samples.

Results

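Crim1, Crym, Etv1, S100a10, Igfbp4 and Pcp4 are genes used to mark layer 5 subcerebral projection neurons of the mouse cortex, and their transcripts were compared between Tbr1 KO and WT cortex. The 6 genes were chosen by name, with earlier results of these data known. Each was read from a probe set that names it alone, and where several did so the one with the highest mean was taken. All 6 were measured at P0.5, among 19938 genes, and 5 at E14.5, among 18194 genes. Etv1 has no such probe set in the E14.5 table, where the 3 probe sets that name it also name another gene.

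The study used 30 Affymetrix arrays. All mice were of the CD1 strain. KO mice were labelled Tbr1 -/- and WT mice wild type, with no transgene or Cre named. Neocortex was taken at E14.5 (3 KO and 3 WT samples), and brain tissue of 3 regions (frontal, parietal, occipital) at P0.5 (4 KO and 4 WT samples of each region). The labels do not say which samples came from separate animals, so a p-value here measures the spread between these samples, and the number of arrays limits its precision. All levels are log2 probe set signals, on which a difference of 1 is a doubling. Levels are compared for 1 gene at a time and within 1 stage, because the stages were measured with different probe sets.

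Subcerebral projection neurons send axons from layer 5 to the spinal cord, brainstem and other targets below the cortex, and the transcription factors Fezf2 and Bcl11b (Ctip2) direct their formation. Tbr1 is a T-box transcription factor of the layer 6 corticothalamic neurons just beneath them, where it is known to restrain Fezf2 and with it the subcerebral program. The 6 genes act at different places in such a cell. Etv1 is a nuclear ETS factor, Crim1 a transmembrane protein that binds bone morphogenetic proteins, Crym a cytosolic protein that binds thyroid hormone, S100a10 the partner of annexin A2 at the membrane, Pcp4 a small regulator of calmodulin, and Igfbp4 a secreted protein that binds insulin-like growth factors.

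Markers of cortical neurons were well above the array medians (7.42 to 7.52) at P0.5. There the mean of the 4 measured genes of 5 listed for cortical glutamatergic neurons (Neurod6 and others) lay between 9.56 and 9.92 on all 24 arrays. Tbr1 was at 9.48 to 9.90 in KO and 10.21 to 10.60 in WT frontal tissue, at 9.49 to 9.91 in KO and 10.14 to 10.43 in WT parietal tissue, and at 9.07 to 9.42 in KO and 9.73 to 10.41 in WT occipital tissue. The part of the transcript that the probes read, relative to the null allele, is not given in the sources used here. The mean of 3 measured Y-linked genes of 4 listed split the arrays. It was 5.09 to 5.99 in all 4 KO frontal and 8.99 to 9.15 in all 4 WT frontal samples, so Y-linked level and genotype cannot be told apart in frontal tissue. In parietal tissue KO replicates 2 and 4 and WT replicate 2 were low (5.36 to 5.76), and in occipital tissue KO replicate 3 was low (5.88), with all other parietal and occipital samples at 9.02 or above. Same-numbered KO arrays differed in it across regions, so a number does not mark 1 animal there. WT replicate 2 differed as well, at 9.02 in frontal, 5.76 in parietal and 9.44 in occipital tissue, so that number does not mark 1 animal either.

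The sequence just before the start site is shown for Crim1 and Etv1 because, of the members in the promoter table, these were called higher in KO tissue. Capitals mark CG dinucleotides. The windows are the 250 bases before a RefSeq start site on GRCm38.p6, plus strand, chr17:78199998-78200247 for Crim1 and chr12:38779832-38780081 for the first of 2 Etv1 start sites in the table.
Crim1: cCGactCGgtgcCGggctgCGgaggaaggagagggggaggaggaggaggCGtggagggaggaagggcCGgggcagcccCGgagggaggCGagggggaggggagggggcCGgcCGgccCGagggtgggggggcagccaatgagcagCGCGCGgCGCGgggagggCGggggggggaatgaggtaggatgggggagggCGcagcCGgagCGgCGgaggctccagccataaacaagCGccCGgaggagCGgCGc
Etv1: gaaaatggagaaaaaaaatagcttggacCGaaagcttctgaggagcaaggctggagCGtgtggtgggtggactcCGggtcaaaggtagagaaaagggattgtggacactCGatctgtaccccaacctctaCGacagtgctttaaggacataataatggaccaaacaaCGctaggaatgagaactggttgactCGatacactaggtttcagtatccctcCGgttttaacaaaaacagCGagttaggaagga
The Crim1 window was 77.6% G and C with 25 CG dinucleotides. The Etv1 window was 46.4% G and C with 9, and the medians over 32851 promoters of this length were 52.4% and 6. The second Etv1 start (chr12:38783461-38783710) had 44.4% and 1, Pcp4 (chr16:96467356-96467605) 46.8% and 3, and Igfbp4 (chr11:99040994-99041243) 69.2% and 22. The table holds 4 of the 6 genes, without Crym and S100a10. The core of the T-box half-site, GGTGTGA or its reverse complement TCACACC, was searched on both strands and found in none of these 5 windows and in 1095 of the 32851 promoters (3.33%). No match says only that these letters are not in the window.

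Etv1, an ETS transcription factor and a widely used mark of layer 5, was higher in KO than in WT tissue in frontal and parietal cortex. In frontal tissue its signal was 9.63, 9.84, 9.58 and 9.69 in KO and 9.25, 9.21, 8.96 and 8.96 in WT samples. In parietal tissue it was 9.78, 10, 9.99 and 10.01 in KO and 9.23, 9.22, 9.16 and 9.11 in WT samples. Every KO sample lay above every WT sample in both regions. The difference, KO minus WT, was 0.59 in frontal tissue (1.50-fold, SE 0.0981, limma adjusted p = 2.75e-04) and 0.76 in parietal tissue (1.70-fold, SE 0.0981, limma adjusted p = 2.58e-05). In occipital tissue the signal was 9.47, 9.94, 9.43 and 9.71 in KO and 9.49, 9.20, 9.18 and 9.28 in WT samples. WT replicate 1 lay above 2 KO samples there. The occipital difference of 0.35 (95% interval 0.15 to 0.55) did not pass the limma test (adjusted p = 0.0819). It was 0.42 and called without WT replicate 1 (adjusted p = 0.0294) or without KO replicate 3 (adjusted p = 0.0496), and 0.36 and called with the mean of 7 meninges and fibroblast genes in the fit (adjusted p = 0.0482). A second Etv1 probe set differed by 0.65 in frontal, 0.87 in parietal and 0.40 in occipital tissue. It was past the threshold in the same pair of regions. In bulk tissue, more cells of a type and more RNA per cell cannot be told apart.

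Crim1, the transmembrane protein that binds bone morphogenetic proteins, was higher in KO tissue in all 3 regions. In frontal tissue its signal was 10.28, 10.35, 10.08 and 10.01 in KO and 9.68, 9.93, 9.50 and 9.84 in WT samples. In parietal tissue it was 10.24, 10.14, 10.41 and 10.11 in KO and 9.76, 9.69, 9.68 and 9.58 in WT samples. In occipital tissue it was 10.57, 10.34, 10.61 and 10.26 in KO and 10.13, 9.53, 9.53 and 9.88 in WT samples. KO and WT samples did not overlap in any region. The difference was 0.44 in frontal (1.36-fold, SE 0.117, limma adjusted p = 0.0194), 0.55 in parietal (1.46-fold, adjusted p = 0.00883) and 0.68 in occipital tissue (1.60-fold, adjusted p = 0.00172). The frontal call was lost without KO replicate 1 (0.41, adjusted p = 0.0738) or WT replicate 3 (0.37, adjusted p = 0.0833). With the mean Y-linked level in the fit the frontal difference was 0.44, at a limma adjusted p of 0.273, and that of Etv1 0.59 (adjusted p = 0.0232). Because the Y-linked level parts KO from WT samples in frontal tissue, these values cannot divide genotype from Y-linked level there.

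Crym, or mu-crystallin, which binds thyroid hormone, was higher in KO tissue in parietal and occipital cortex. In parietal tissue its signal was 9.11, 8.81, 9.19 and 8.92 in KO and 8.46, 8.51, 8.45 and 8.43 in WT samples. In occipital tissue it was 9.70, 9.10, 9.43 and 9.18 in KO and 8.81, 8.64, 8.43 and 8.95 in WT samples. The groups did not overlap in either region. The difference was 0.54 in parietal (1.46-fold, limma adjusted p = 0.00934) and 0.64 in occipital tissue (1.56-fold, adjusted p = 0.00321). KO occipital replicate 1, the highest Crym, S100a10 and Pcp4 sample of its group, had a mean of 8.80 for 4 hippocampus genes, against 7.75 to 7.91 on the other KO occipital arrays. Without it the occipital difference of Crym was 0.53 (adjusted p = 0.0189) and that of S100a10 0.55 (adjusted p = 0.0231). In frontal tissue the signal was 8.44, 8.71, 8.74 and 8.76 in KO and 8.63, 8.31, 8.49 and 8.39 in WT samples. KO replicate 1 lay below 2 WT samples. The frontal difference of 0.21 (95% interval -0.03 to 0.45) did not pass the limma test (adjusted p = 0.238).

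The parietal samples hold both Y-linked levels in each genotype, and the values at each level are given without a test. Among the samples with a high Y-linked level, Etv1 was at 9.78 and 9.99 in KO and 9.23, 9.16 and 9.11 in WT samples. Crim1 was at 10.24 and 10.41 in KO and 9.76, 9.68 and 9.58 in WT samples, and Crym at 9.11 and 9.19 in KO and 8.46, 8.45 and 8.43 in WT samples. Among those with a low level, Etv1 was at 10 and 10.01 in KO and 9.22 in the WT sample, Crim1 at 10.14 and 10.11 in KO and 9.69 in the WT sample, and Crym at 8.81 and 8.92 in KO and 8.51 in the WT sample. The low level holds 1 WT sample, so it has no WT spread.

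S100a10, which joins annexin A2 and carries membrane proteins to the cell surface, was higher in KO occipital tissue. Its signal there was 10.70, 10, 10.39 and 10.09 in KO and 9.74, 9.19, 9.69 and 9.82 in WT samples, with no overlap. The difference was 0.69 (1.61-fold, limma adjusted p = 0.00415). In frontal tissue the signal was 11.25, 11.40, 11.32 and 11.38 in KO and 10.98, 11.13, 11.14 and 11.11 in WT samples. Those groups did not overlap either. The frontal difference of 0.25 (95% interval -0.02 to 0.52) missed the threshold (limma adjusted p = 0.206), and passed it with only the frontal arrays in the fit (adjusted p = 0.0474). In parietal tissue the signal was 10.63, 10.80, 10.38 and 10.53 in KO and 10.33, 10.10, 10.54 and 10.34 in WT samples. WT replicate 3 lay above 2 KO samples, and the difference of 0.26 (95% interval -0.01 to 0.52) did not pass (adjusted p = 0.572).

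Pcp4, a calmodulin regulator of many neuron types besides those of layer 5, was not called in any region. In frontal tissue its signal was 10.25, 10.32, 10.22 and 10.62 in KO and 10.08, 9.80, 10.21 and 9.71 in WT samples. All 4 KO samples lay above the WT samples, the closest of them just so, and the difference was 0.40 (95% interval 0.09 to 0.71, limma adjusted p = 0.0977). In parietal tissue it was 10.26, 10.35, 10.23 and 10.34 in KO and 10.40, 10.11, 10.15 and 10.11 in WT samples. In occipital tissue it was 10.42, 9.84, 9.84 and 9.96 in KO and 10.53, 9.80, 9.75 and 9.59 in WT samples. WT replicate 1 was the highest sample of both regions, and the differences were 0.10 in each (95% interval -0.21 to 0.41 in both regions, limma adjusted p = 0.964 in parietal and 0.866 in occipital tissue). On WT occipital replicate 1 the mean of 6 thalamus genes was 8.68, against 7.72 to 7.83 on the other WT occipital arrays. Its choroid plexus mean (6 genes) was 8.34, against 6.71 to 7.25, and its meninges mean 9.09, against 6.96 to 8.74. The part of these tissues in the Pcp4 signal was not tested. The occipital Pcp4 difference was 0.30 without this array (adjusted p = 0.291) and -0.04 without KO occipital replicate 1 (adjusted p = 0.925).

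Igfbp4, the secreted protein that binds insulin-like growth factors, did not differ between genotypes beyond its spread. In frontal tissue its signal was 9.02, 9.38, 9.22 and 9.02 in KO and 9.73, 8.77, 8.52 and 9.76 in WT samples. The WT samples spanned both ends, at 9.20 ± 0.644 (SD, n = 4), against 9.16 ± 0.175 (SD, n = 4) in KO. In parietal tissue it was 8.90, 8.90, 9.09 and 8.85 in KO and 9.20, 8.70, 8.89 and 8.89 in WT samples. In occipital tissue it was 9.42, 8.87, 9.16 and 8.94 in KO and 9.32, 8.77, 8.54 and 9.17 in WT samples. KO and WT overlapped in all 3 regions. The differences were -0.04 in frontal (95% interval -0.46 to 0.39, limma adjusted p = 0.914), 0.01 in parietal (adjusted p = 0.998) and 0.15 in occipital tissue (95% interval -0.28 to 0.57, adjusted p = 0.847).

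**Figure D1:**
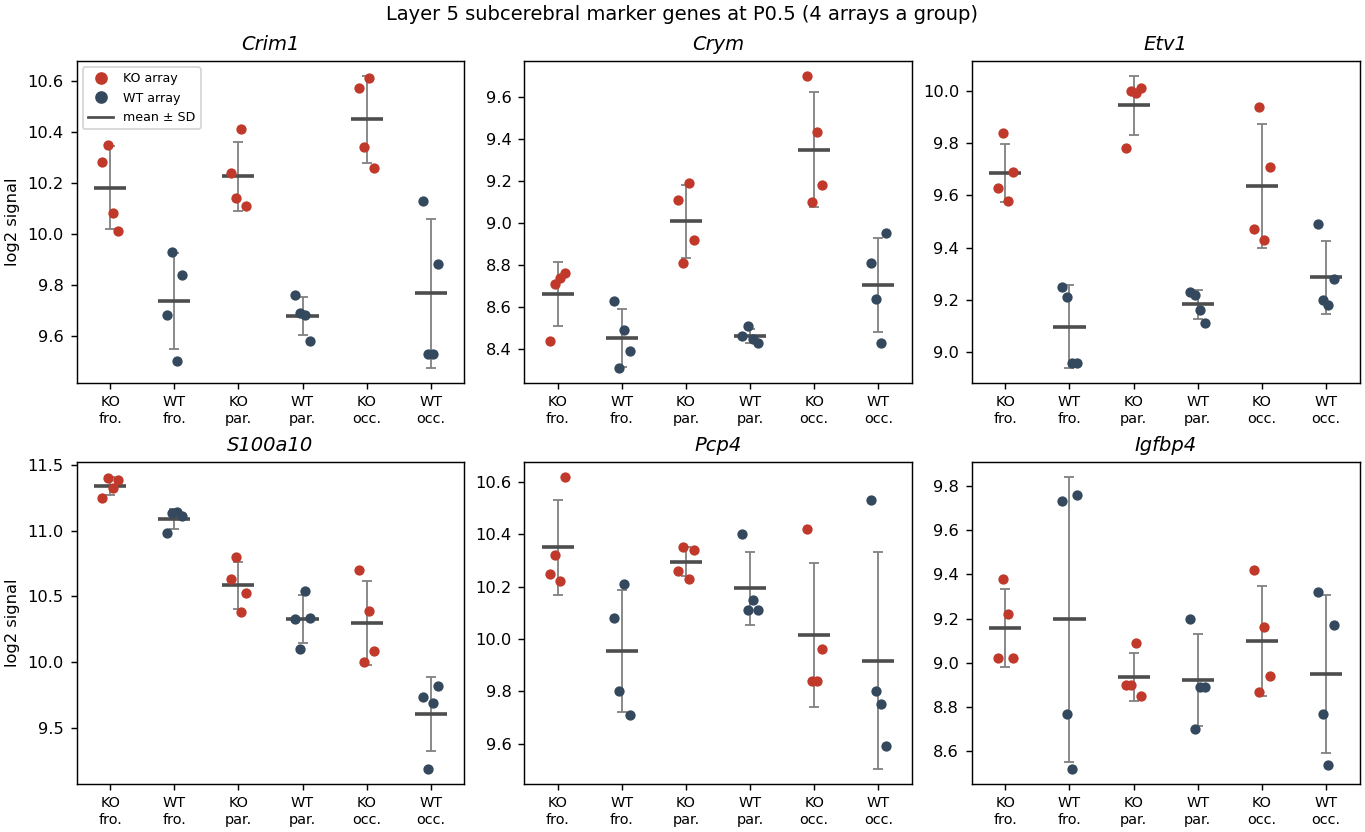
Log2 signal of the 6 layer 5 genes in every P0.5 sample (y axis) by region and genotype, with the KO samples left of the WT samples; points are samples and lines are means ± SD. Crim1 samples of KO and WT are apart in all 3 regions (the lowest KO frontal sample is at 10.01 and the highest WT frontal sample at 9.93), while Igfbp4 samples overlap everywhere.

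Counted together, 2 of the 6 genes were called higher in KO frontal tissue, where 4.70% of all genes were, and 3 of 6 in parietal tissue, where 1.06% were. In occipital tissue 3 of 6 were called higher, against 0.762% of all genes. No member was called lower, as 2.81%, 0.747% and 0.577% of all genes were in these regions. The groups were apart, with KO above, for 4 of 6 in frontal (6.42% of all genes), 3 of 6 in parietal (3.68%) and 3 of 6 in occipital tissue (3.76%). The median difference of the 6 was 0.32 in frontal, 0.40 in parietal and 0.50 in occipital tissue, while the median over all genes was -0.03, -0.01 and 0.01. Because the list is short and was chosen with earlier results of these data known, these shares are a description, and no test was made of the list.

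When the 3 regions were averaged by replicate number before the fit, 4 of 6 genes were called higher and none lower, against 4.71% and 2.75% of all genes, and the same 4 were apart (7.21% of all genes). Since a number does not mark 1 animal, these averages may mix animals or divide 1 animal between averages, and the SE and p below carry that limit. Etv1 rose by 0.57 (SE 0.0682, limma adjusted p = 1.10e-04) and Crim1 by 0.56 (SE 0.0654, adjusted p = 8.88e-05). Crym rose by 0.47 (SE 0.0615, adjusted p = 2.24e-04) and S100a10 by 0.40, or 1.32-fold (SE 0.0649, adjusted p = 0.00126). Pcp4 differed by 0.20 (95% interval 0.0047 to 0.39, limma adjusted p = 0.246), and by 0.30 without WT replicate 1, where it was called (adjusted p = 0.00973). Igfbp4 differed by 0.04 (95% interval -0.25 to 0.33, adjusted p = 0.908). The members median was 0.43 and that of all genes -0.01. With the mean Y-linked level in the fit, Etv1 (0.57), Crim1 (0.55), Crym (0.51) and S100a10 (0.40) were called. That fit counted each array as a replicate instead of using the averages, so its calls are not on the same footing as those above.

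**Figure D2:**
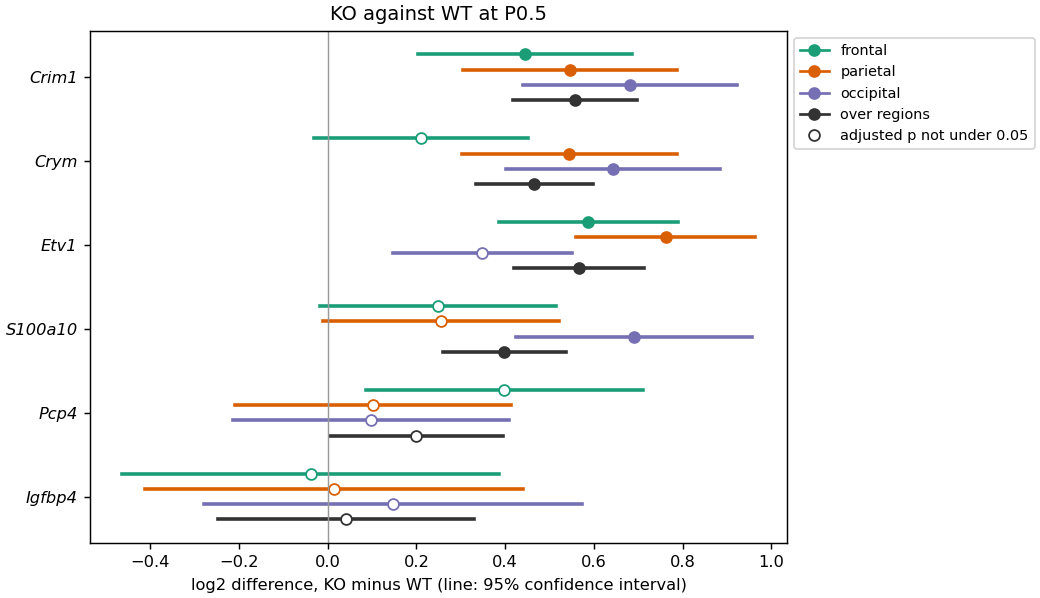
KO minus WT log2 difference of each gene (x axis) in frontal, parietal and occipital tissue and over regions, with 95% intervals from limma; filled points passed the adjusted threshold. Crim1 was called in every one, at 0.44, 0.55, 0.68 and 0.56, and the intervals of Igfbp4 hold 0 throughout.

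The genes also differed among regions, which the study sampled from front to back. S100a10 fell off toward the back of WT cortex. Its WT mean was 11.09 ± 0.075 in frontal, 10.33 ± 0.181 in parietal and 9.61 ± 0.283 in occipital tissue (SD, n = 4 each). In WT, frontal exceeded occipital tissue by 1.48, or 2.79-fold (SE 0.129, limma adjusted p = 6.17e-08), frontal exceeded parietal by 0.76 (adjusted p = 0.0048) and parietal exceeded occipital by 0.72 (adjusted p = 0.00591). It was the 1 member called in each of these WT comparisons, in which 6.03%, 0.171% and 0.451% of all genes were called in either direction.

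In KO cortex the S100a10 means were 11.34 ± 0.069 in frontal, 10.59 ± 0.178 in parietal and 10.30 ± 0.317 in occipital tissue (SD, n = 4 each). Frontal exceeded occipital tissue by 1.04 (2.06-fold, limma adjusted p = 1.71e-05) and parietal by 0.75 (adjusted p = 0.00863). The second of these was lost without KO parietal replicate 4 (0.73, adjusted p = 0.0584). Parietal exceeded occipital tissue by 0.29 (95% interval 0.02 to 0.55), which did not pass (adjusted p = 0.652). The frontal minus occipital difference of S100a10 was 0.44 smaller in KO than in WT (interaction -0.44, 95% interval -0.82 to -0.06), and this difference of differences was not called (limma adjusted p = 0.207).

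Crym ran the other way in KO cortex, with more signal at the back. Its KO mean was 8.66 ± 0.151 in frontal, 9.01 ± 0.174 in parietal and 9.35 ± 0.272 in occipital tissue (SD, n = 4 each), and all 4 frontal samples lay below all 4 occipital samples. KO frontal minus occipital tissue was -0.69 (1.61-fold lower in frontal, limma adjusted p = 7.32e-04), and -0.57 without KO occipital replicate 1 (adjusted p = 0.0047). In WT the same difference was -0.25 (95% interval -0.50 to -0.01, adjusted p = 0.167), from means of 8.45 ± 0.138 in frontal and 8.71 ± 0.223 in occipital tissue. The difference between genotypes, -0.43 (95% interval -0.77 to -0.09), did not pass (limma adjusted p = 0.191). S100a10 and Crym were the 2 members called between frontal and occipital KO tissue, in which 3.22% of all genes were called in either direction. S100a10 alone was called between frontal and parietal KO tissue (0.236% of all genes), and no member between parietal and occipital KO tissue by limma (0.351% of all genes, 3 of 6 members at an unadjusted p under 0.05, where 7.04% of all genes lay).

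Of the other 4 genes none was called between regions in either genotype. Etv1 was highest in KO parietal tissue (9.95 ± 0.113, SD, n = 4), 0.31 above KO occipital tissue (limma adjusted p = 0.269, and 0.41 with adjusted p = 0.0481 without KO occipital replicate 2). Crim1 was 0.27 lower in KO frontal than in KO occipital tissue (difference -0.27, 95% interval -0.51 to -0.03, adjusted p = 0.273), and Pcp4 0.34 higher in KO frontal than in KO occipital tissue (95% interval 0.02 to 0.65, adjusted p = 0.296). No member was called in the 3 interactions of region and genotype by limma, in which 0.416%, 0.0100% and 0.0100% of all genes were called for frontal against occipital, frontal against parietal and parietal against occipital tissue. At an unadjusted p under 0.05 those shares were 20.1%, 8.13% and 3.93%, and the members there were Crym and S100a10 for frontal against occipital and Etv1 and S100a10 for parietal against occipital tissue.

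Set in order by their group means, Crim1 and Etv1 had the 3 WT groups below the 3 KO groups. The step between the highest WT and the lowest KO mean was 0.41 for Crim1 and 0.35 for Etv1. Each step was larger than the SD of either group beside it, but the samples of those groups overlapped. WT occipital samples reached 10.13 for Crim1, where KO frontal samples began at 10.01. For Etv1 they reached 9.49, where KO occipital samples began at 9.43. Among WT groups each step of both genes was smaller than the larger SD of the groups beside it. For Crym, WT frontal and WT parietal tissue were lowest and did not differ beyond their spread, nor did KO frontal from WT occipital tissue, and KO occipital tissue was highest. S100a10 was ordered by region before genotype, with WT below KO within each region, and KO occipital differed from WT parietal tissue by only 0.03. For Igfbp4 and Pcp4 no step between neighbours exceeded the larger SD of the groups beside it.

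Igfbp4 moved with markers of connective tissue. Across the 24 P0.5 arrays, which share genotype and region groups, its signal correlated at r = 0.87 with the mean of 7 genes of meninges and fibroblasts (Col1a1, Dcn and others, all 7 measured) and at 0.78 with 7 blood vessel genes. The meninges mean was 7.39, 8.73, 8.78 and 7.24 in KO and 9.13, 7.45, 7.08 and 9.74 in WT frontal samples. WT frontal replicates 1 and 4, where Igfbp4 was 9.73 and 9.76, had the highest meninges means of that group. In occipital tissue the meninges mean was 8.39, 7.51, 7.64 and 7.57 in KO and 9.09, 7.70, 6.96 and 8.74 in WT samples. In parietal tissue it was 7.42, 7.38, 7.29 and 7.38 in KO and 8.09, 6.97, 6.98 and 6.93 in WT samples. With this mean as a covariate, Igfbp4 KO minus WT was 0.09 in frontal, -0.04 in parietal and 0.28 in occipital tissue, and none was called. The genes most like Igfbp4 over these arrays were Tcn2 (r = 0.916), Sparc (0.901) and Fstl1 (0.873). The cell source of the Igfbp4 signal was not tested.

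**Figure D3:**
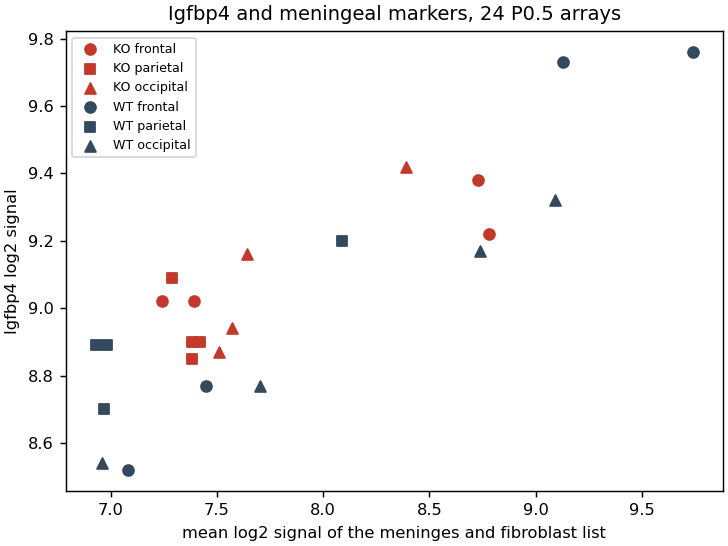
Igfbp4 log2 signal (y axis) against the mean log2 signal of 7 meninges and fibroblast genes (x axis) on the 24 P0.5 arrays, coloured by genotype with KO first. The points climb together, r = 0.87, with WT frontal replicates 1 and 4 at the upper right.

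The other members had other nearest neighbours, among 9969 genes above the median level and over the same 24 arrays, so that each r includes the shared genotype and region effects. For Etv1 these were Epha7 (r = 0.905), Zfp521 (0.901) and Fezf2 (0.879). For Crim1 they were Sh3rf1 (0.923), Arhgap26 (0.881) and Mest (0.871), and for Crym Stxbp6 (0.900), Sema6d (0.878) and Nalcn (0.876). S100a10 was closest to Pcdh17 (0.876), Zyx (0.874) and Gab2 (0.862), and Pcp4 to Bloc1s1 (0.737), Gm5617 (0.701) and Pnkd (0.686). Among the members, Crim1 and Crym correlated at 0.779 over all 24 arrays, Crim1 and Etv1 at 0.721 and Crym and Etv1 at 0.539. After the group means were removed, these were 0.392, 0.170 and -0.226. The mean of the layer 6 corticothalamic list (8 genes, Tbr1 among them) correlated at r = -0.87 with Crim1, -0.77 with Etv1 and -0.71 with Crym. It correlated at -0.26 with Pcp4, -0.24 with Igfbp4 and -0.22 with S100a10. Its mean was 8.71 to 8.98 on all KO and 9.12 to 9.56 on all WT arrays of P0.5.

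At E14.5, when layer 5 neurons have recently been made, 5 of the 6 genes were measured and none was called by limma. No gene at all was called at this stage (0%), and 5.76% of genes had an unadjusted p under 0.05. Crym was at 7.36, 6.12 and 6.70 in KO and 5.51, 4.99 and 5.09 in WT samples, and S100a10 at 9.83, 9.47 and 8.63 in KO and 8.21, 6.84 and 8.03 in WT samples. For both, all 3 KO samples lay above all 3 WT samples, as did 7.43% of all genes. The difference was 1.53 for Crym (95% interval 0.80 to 2.26, unadjusted p = 0.00145, limma adjusted p = 0.85) and 1.62 for S100a10 (95% interval 0.60 to 2.63, unadjusted p = 0.00663, adjusted p = 0.85). These 2 of 5 members had an unadjusted p under 0.05 and were higher, as 3.32% of all genes were. Between same-numbered samples, KO minus WT was 1.85, 1.13 and 1.60 for Crym and 1.62, 2.63 and 0.60 for S100a10. With the number as a replicate block neither gene was called by limma.

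For the other 3 members the KO and WT samples overlapped at E14.5. Igfbp4 was at 11.27, 10.94 and 10.28 in KO and 10.45, 10.39 and 10.16 in WT samples (difference 0.49, 95% interval -0.10 to 1.08, limma adjusted p = 0.887). Pcp4 was at 8.69, 8.61 and 9.10 in KO and 8.40, 7.42 and 8.64 in WT samples (difference 0.64, 95% interval -0.13 to 1.41, adjusted p = 0.887). Crim1 was at 4.97, 5.76 and 5.55 in KO and 5.79, 5.23 and 5.48 in WT samples (difference -0.07, 95% interval -0.62 to 0.48, adjusted p = 0.979). Between same-numbered samples, KO minus WT was 0.82, 0.55 and 0.11 for Igfbp4, 0.29, 1.18 and 0.46 for Pcp4, and -0.82, 0.53 and 0.07 for Crim1. With the number as a replicate block, Igfbp4 (limma adjusted p = 0.593), Pcp4 (adjusted p = 0.604) and Crim1 (adjusted p = 0.963) were not called. With each sample left out in turn, the Igfbp4 difference spanned 0.27 (without KO replicate 1) to 0.77 (without KO replicate 3), and the Pcp4 difference 0.28 (without WT replicate 2) to 0.88 (without WT replicate 3). Of these genes, Crim1 was the one without a positive difference, and its mean signal over the arrays ranked at the 41.3 percentile of all genes. A second, dimmer Crim1 probe set (mean signal 3.785) differed by 0.04 between KO and WT. The members median was 0.64 and that of all genes 0.06. Tbr1 itself was 7.23 to 8.69 in KO and 8.89 to 9.36 in WT samples, with a difference of -1.29 that was not called (limma adjusted p = 0.85).

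Levels of marker lists of neighbouring tissues are set beside these values, and 0 of their genes were called by limma at E14.5 (4 of 7 meninges, 2 of 6 choroid plexus and 1 of 6 thalamus genes had an unadjusted p under 0.05). The mean of 7 meninges and fibroblast genes was 8.84, 9.31 and 7.82 in KO and 7.26, 7.24 and 7.49 in WT samples, and that of 6 choroid plexus genes 7.48, 7.30 and 7.60 in KO and 5.86, 6.62 and 6.95 in WT samples. The mean of 6 thalamus genes was 6.26, 6.39 and 7.70 in KO and 6.05 to 6.26 in WT samples, while the 4 measured cortical glutamatergic genes averaged 7.73 to 8.49 in KO and 8.41 to 8.93 in WT samples. All KO samples lay above all WT samples for the meninges and choroid plexus means, KO replicate 3 stood apart for the thalamus mean, and the glutamatergic ranges overlapped. With the meninges mean as a covariate, S100a10 KO minus WT was 0.66, Crym 1.83 and Igfbp4 -0.14. Because the meninges mean itself parts KO from WT samples here, these values cannot divide genotype from meninges level. The parts of the choroid plexus, thalamus, interneuron and striatum genes in these values were not tested. Of the other S100a10 probe sets, a bright one (mean signal 7.80) differed by 1.15 between KO and WT, and a dim one (mean signal 4.02, below the array medians of 5.12 to 5.15) by 0.14. The 6 probe sets of Igfbp4 gave differences of 0.49 to 0.63.

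**Figure D4:**
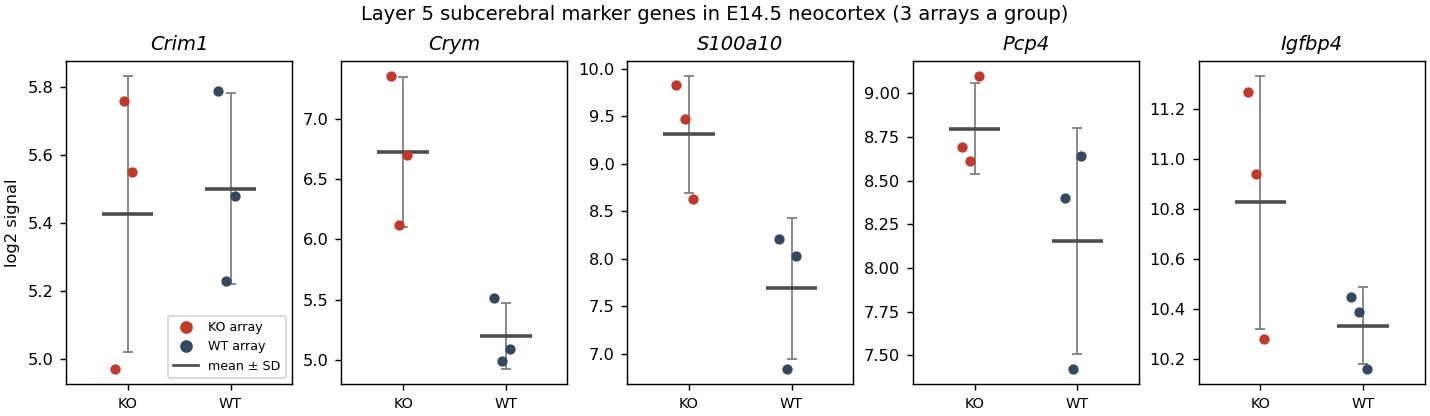
Log2 signal of the 5 measured layer 5 genes in each E14.5 sample (y axis), KO left of WT, with points for samples and lines for means ± SD. Crym (6.12 to 7.36 in KO, 4.99 to 5.51 in WT) and S100a10 (8.63 to 9.83 in KO, 6.84 to 8.21 in WT) are apart, and the other 3 genes overlap.

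A further 12 genes known from layer 5 subcerebral neurons, all measured at both stages, were read beside the members. They moved both ways. In frontal tissue 2 were called higher and 2 lower in KO, in parietal tissue 2 higher and none lower, and in occipital tissue 2 higher and 1 lower. Over all genes, 4.70% were called higher and 2.81% lower in frontal, 1.06% higher and 0.747% lower in parietal, and 0.762% higher and 0.577% lower in occipital tissue. The median difference of the 12 was -0.02, 0.07 and 0.09 in these regions and 0.04 over the regions, where 4 were called higher and 1 lower (4.71% and 2.75% of all genes). Fezf2, the transcription factor that specifies these neurons, was called in each region, at 0.70 in frontal (limma adjusted p = 3.44e-05), 0.79 in parietal (adjusted p = 1.96e-05) and 0.59 in occipital tissue (adjusted p = 0.00144). Bcl11b, which acts below Fezf2, was called in no single region but over the regions, at 0.18 (adjusted p = 0.0342). The natriuretic peptide receptor Npr3 was higher in parietal tissue (0.37, adjusted p = 0.0122) and over the regions (0.27, adjusted p = 0.00225), and the membrane-anchored netrin Ntng1 in occipital tissue (0.37, adjusted p = 0.0314). Tcerg1l was lower in frontal (-0.36, adjusted p = 0.0256) and occipital tissue (-0.40, adjusted p = 0.0406) and over the regions (-0.34, adjusted p = 0.00264), and the LIM cofactor Ldb2 was lower in frontal tissue (-0.35, adjusted p = 0.0171).

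Cntn6, a contactin of the cell surface, depended on region. Its KO mean was 9.73 in frontal tissue, against 8.55 in WT, and the difference of 1.18 was called (2.26-fold, limma adjusted p = 6.47e-05). In parietal tissue the difference was 0.43 (adjusted p = 0.352), and in occipital tissue -0.48 (adjusted p = 0.241), with means of 9.17 in KO and 9.65 in WT. In WT, frontal tissue was 2.14-fold below occipital tissue (adjusted p = 2.91e-04) and 0.89 below parietal tissue (difference -0.89, adjusted p = 0.0203). The frontal minus occipital difference was 1.66 greater in KO than in WT, and this interaction was called (SE 0.246, limma adjusted p = 0.00119). Over the regions the rise was 0.38 (adjusted p = 0.022). Between regions of 1 genotype, Diaph3 (0.49, adjusted p = 0.0384) and the retinol carrier Rbp4 (0.43, adjusted p = 0.00714) were higher in frontal than occipital WT tissue, Ntng1 was lower in frontal than occipital KO tissue (-0.32, adjusted p = 0.043), and Ldb2 was lower in frontal than parietal KO tissue (-0.47, adjusted p = 0.0254). At E14.5 none of the 12 was called by limma and 1 had an unadjusted p under 0.05, as 5.76% of all genes did. This was Bcl11b, named here after its values were seen, with means of 9.75 in KO and 10.83 in WT and a difference of -1.08 (limma adjusted p = 0.85). The median E14.5 difference of the 12 was -0.08, with 4 of the 12 above 0, while the median over all genes was 0.06. Fezf2 differed by -0.26 at E14.5 (95% interval -0.74 to 0.21, limma adjusted p = 0.961).

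**Figure D5:**
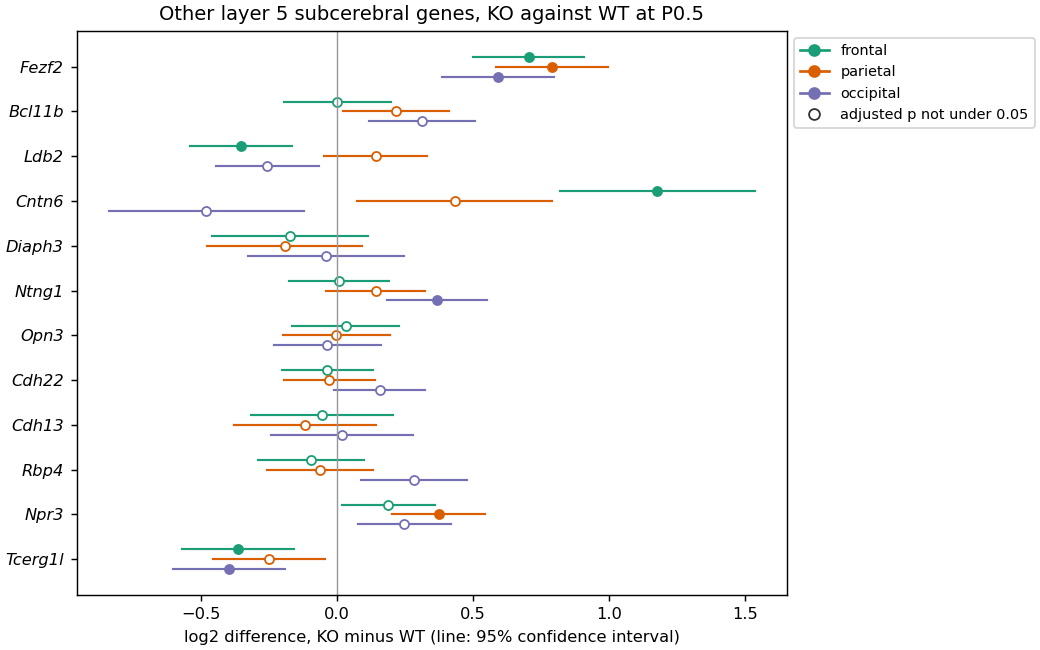
KO minus WT log2 difference (x axis) of the 12 other layer 5 genes in the 3 P0.5 regions, with 95% limma intervals; filled points passed the adjusted threshold. Fezf2 lies to the right in all regions (0.59 to 0.79), and Cntn6 runs from 1.18 in frontal to -0.48 in occipital tissue.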

How the data were processed

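RNA of 30 samples was measured on Affymetrix arrays. The deposited values are log2 signals per probe set, made by the authors with Affymetrix Expression Console 1.1 and RMA, per the submitters' processing notes. They were not normalized again. The labels' protocol names the Gene 1.0 ST array, but the E14.5 probe set names are those of an older array type, so the stages were fitted apart. The array build is not given in the sources used here. Array medians lay at 5.12 to 5.15 (E14.5) and 7.42 to 7.52 (P0.5).

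Probe sets naming exactly 1 gene were kept, 34958 of 45101 at E14.5 and 21789 of 35557 at P0.5, with the highest mean taken per gene. No filter on dim genes was used. Differences were fitted over all genes with limma 3.58.1 in R 4.3.3 (two-sided, empirical Bayes, spread modelled on intensity, Benjamini-Hochberg). A gene was called at an adjusted p under 0.05. P0.5 comparisons came from 1 fit of 24 arrays with 6 groups. For values over the regions, the 3 regions' arrays with 1 number were first averaged within a genotype. Fits over the regions with a covariate used the separate arrays instead. The fits were tested on simulated data. At E14.5, 6% of simulated log2 changes of 0.5 and 40% of those of 1 were recovered. For KO against WT in the P0.5 regions these shares were 79% to 80% and 98% to 99%.

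Named genes were the 6 members, Tbr1, called genes of a list of 12 other layer 5 genes, and the 3 genes most correlated with each member. The members and lists were chosen with earlier results of these data known. Residuals of same-numbered E14.5 arrays correlated at 0.126 to 0.444 and each was closest to its own number, so these numbers may pair samples. Same-numbered WT parietal and WT occipital arrays correlated at 0.124 to 0.276, and 3 of 4 WT parietal arrays were closest to their own number. WT replicate 2 differed in Y-linked level between these regions, so that number does not mark 1 animal. In the other P0.5 pairs of groups at least 1 correlation lay under 0.1. Alternatives were averaging all probe sets of 1 gene, a filter on the dimmest 30% of genes, median-centred arrays, no intensity trend, a replicate block, only the arrays compared, the mean Y-linked level as a term, and leaving out each array. Added after the data were seen were the E14.5 Y-linked covariate, leaving out the 2 arrays with the widest residuals (WT frontal replicate 4 and KO parietal replicate 2) and the meninges level as a covariate.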

Additional observations from a re-analysis of the deposited data

Results flagged for a closer look

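Of 36 groups of 4 samples tested for a single sample far from the others (Dixon's criterion), 4 held one, and chance alone marks about 1 in 20 groups. Crym in KO frontal replicate 1 was at 8.44, below 8.71 to 8.76 on the other KO frontal arrays. Etv1 in KO parietal replicate 1 was at 9.78, below 9.99 to 10.01 on the other KO parietal arrays. S100a10 in WT frontal replicate 1 was at 10.98, below 11.11 to 11.14 on the other WT frontal arrays. Pcp4 in WT parietal replicate 1 was at 10.40, above 10.11 to 10.15 on the other WT parietal arrays. All 4 are replicate 1 of their group.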

How the results depend on the processing

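Of 83 values for the members, 18 were called. Under the alternatives other than leaving out single arrays, 145 of 146 further values of these stayed called and none turned sign (2 of 513 values that were not called became so, S100a10 in frontal tissue with only the arrays compared and Etv1 in occipital tissue with the meninges level in the fit), and with each array left out in turn 141 of 144 did. The number of members called in frontal tissue was 1 with the Y-linked covariate (Crim1 lost, with 247 genes called in all, against 1499 without it) and 1 to 2 with an array left out. In frontal tissue this covariate cannot divide Y-linked level from genotype. Between frontal and parietal KO tissue the members called were 0 to 1, and between parietal and occipital KO tissue 0 to 1, with an array left out. A replicate block left the number of members called as it was, at 0 for E14.5, 2 in frontal, 3 in parietal and 3 in occipital tissue, and 1 between WT parietal and occipital tissue, and changed no other member's call.

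Sign turned for values that were not called. With the Y-linked covariate these were Crim1 at E14.5 (0.12) and Igfbp4 in frontal tissue (0.0691), WT parietal minus occipital (0.00219) and the frontal minus parietal interaction (0.0233). At E14.5 the Y-linked mean was 3.66 to 4.04 in KO and 3.66 to 4.68 in WT samples. These levels lay below the array medians (5.12 to 5.15) and did not split the arrays as at P0.5. With the meninges covariate Igfbp4 was -0.14 at E14.5, 0.0859 in frontal and -0.0353 in parietal tissue. With median-centred arrays the S100a10 frontal minus parietal interaction was 0.0146. Without the 2 arrays of widest residuals, Igfbp4 was 0.15 in frontal tissue, 0.00363 in the frontal minus occipital and 0.12 in the frontal minus parietal interaction, Crym 0.00963 for WT frontal minus parietal, S100a10 0.0742 in the frontal minus parietal interaction and Pcp4 -0.0124 in the parietal minus occipital interaction.

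With each array left out, Crim1 spanned -0.24 to 0.15 at E14.5, -0.11 to 0.0904 for WT frontal minus occipital, -0.00637 to 0.14 for WT frontal minus parietal, -0.17 to 0.0321 for WT parietal minus occipital and -0.10 to 0.0177 for KO frontal minus parietal tissue. Igfbp4 spanned -0.26 to 0.15 in frontal and -0.0597 to 0.11 in parietal tissue, -0.0826 to 0.17 over regions, -0.16 to 0.0952 for WT parietal minus occipital, -0.0151 to 0.17 for KO frontal minus occipital, and -0.41 to 0.00363, -0.28 to 0.14 and -0.26 to 0.0020 in the interactions. Pcp4 spanned -0.0376 to 0.30 in occipital tissue, -0.0726 to 0.24 for WT frontal minus occipital, -0.0332 to 0.10 for KO frontal minus parietal and -0.20 to 0.14 in the parietal minus occipital interaction. Crym spanned -0.0698 to 0.0371 for WT frontal minus parietal and -0.18 to 0.0173 in the parietal minus occipital interaction, Etv1 -0.0206 to 0.15 for KO frontal minus occipital and S100a10 -0.0780 to 0.0696 in the frontal minus parietal interaction. The cause of these changes was not tested.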
